A study of Mus musculus with 7 samples.

Results

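Aquaporins and hyaluronan genes are the RNA side of 2 ways in which skin holds water. The 10 genes described here are Aqp1, Aqp3, Aqp5, Aqp9, Has1, Has2, Has3, Hyal1, Hyal2 and Cd44, taken by gene name from the spots of the arrays that are not controls. They were measured by 17 probes of the 41174 on the array and stand for 10 of its 27670 gene names. All 10 genes, by 15 of the 17 probes, passed the filter on dim probes, which needed 3 or more of the 14 channels to be well above background. Over the whole array 17111 genes passed it.

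Aquaporins are membrane pores that let water through, and the aquaglyceroporins among them also carry glycerol, which binds water in the epidermis. Hyaluronan is a long sugar polymer of the space between cells that swells with water. It is made at the cell surface by the hyaluronan synthases, cut by hyaluronidases, and bound by receptors such as Cd44.

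The skin came from the back of 5-week-old male mice of the hairless strain HR-1. All mice ate the AIN-93G rodent diet, with or without glucosylceramide (GC), a lipid of a sugar bound to ceramide. Control-fed and GC-fed skin before treatment came after 12 days of diet, with 3 samples each. Control-fed and GC-fed skin after treatment came after 14 days of diet, with 4 samples each. This treated skin had received 10% sodium dodecyl sulfate (SDS), a detergent that damages the skin barrier, for 5 minutes a day on the right side of the back for 2 days. The comparisons address what dietary GC does to gene expression in intact and in detergent-damaged skin. Each of the 7 two-colour arrays carried a GC-fed and a control-fed sample. Replicates carry numbers in the labels, which do not say if a sample is 1 animal or a pool, so p-values measure the spread between these samples, which may be partly technical. Diet effects share 1 estimate of the spread per gene over all 7 arrays. Their SEs and intervals thus do not measure the spread of the after-SDS arrays alone.

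A diet ratio is the log2 of the GC-fed over the control-fed signal on 1 array, and a level is the log2 intensity of 1 sample after normalization. The level of a gene is read only against the same gene in other samples, because probes differ in brightness. In whole skin, fewer cells of a type and less RNA per cell cannot be told apart. The before-SDS arrays lay on slide 1 and the after-SDS arrays on slide 2. Skin before SDS came after 12 days of diet and skin after SDS after 14, with no untreated skin at 14 days. SDS, slide and the added days thus cannot be told apart, and each SDS effect given here may hold all of them. Across all genes, which are not independent replicates, array 4 after SDS ran against arrays 1, 2 and 3 (r = -0.50, -0.62 and -0.30 between diet ratios), and array 1 before SDS against arrays 2 and 3 (r = -0.40 and -0.18). In the labels GC-fed skin was in the dye Cy3 on before-SDS array 1 and after-SDS arrays 1 and 2, and in Cy5 on the others. Array 1 before SDS thus differed from arrays 2 and 3 also in dye. Through the dye term of the fit, effects before SDS differ from mean ratios (0.1058 against 0.0025 for Aqp3). Without array 4 the after-SDS arrays are unbalanced in the same manner. The labelled dyes were kept, and diet results of the members after SDS are given with and without array 4. Array 4 was singled out after it was seen to oppose the others. Leaving it out narrows the spread by construction where its ratio opposes theirs, so calls made without it are descriptions. Whether the GC-fed and control-fed samples of array 4 were exchanged cannot be checked from the files; such an exchange would turn each of its ratios and move its levels between the diets. Between 48.5% and 62.8% of the spots of a channel stood well above background. Of the epidermal markers, 7 of 7 basal and 8 of 8 suprabasal keratinocyte genes passed the filter, as did 7 of 7 fibroblast genes and 10 of 10 skeletal muscle genes.

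The 250 bases before the start site were read from RefSeq (GRCm38.p6), whose promoter table matched 8 of the 10 genes. The 4 printed here belong to Aqp3, to Aqp1 and Cd44, whose diet ratios had the opposite sign to that of Aqp3 on 4 and 3 of the 4 after-SDS arrays, and to Hyal1, the gene with the same direction on every after-SDS array. They lie at chr4:41098184-41098433, chr6:55336049-55336298, chr2:102901666-102901915 and chr9:107576700-107576949, and read 5′ to 3′ on the strand of the gene. Capitals mark matches, on either strand, to the TATA box TATAAA, the CCAAT box CCAAT, the GC box GGGCGG, the AP-1 motif TGANTCA, the E-box CACGTG or the NF-kB motif GGGNNNTCC.
Aqp3: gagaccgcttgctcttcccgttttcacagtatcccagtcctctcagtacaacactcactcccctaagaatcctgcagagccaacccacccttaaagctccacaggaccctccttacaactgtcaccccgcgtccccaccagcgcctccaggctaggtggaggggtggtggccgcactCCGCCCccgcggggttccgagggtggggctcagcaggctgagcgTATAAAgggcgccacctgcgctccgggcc
Aqp1: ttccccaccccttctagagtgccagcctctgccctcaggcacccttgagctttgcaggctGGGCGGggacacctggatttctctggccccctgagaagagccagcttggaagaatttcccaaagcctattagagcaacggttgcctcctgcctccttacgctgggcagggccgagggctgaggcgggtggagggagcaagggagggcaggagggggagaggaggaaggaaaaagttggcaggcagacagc
Cd44: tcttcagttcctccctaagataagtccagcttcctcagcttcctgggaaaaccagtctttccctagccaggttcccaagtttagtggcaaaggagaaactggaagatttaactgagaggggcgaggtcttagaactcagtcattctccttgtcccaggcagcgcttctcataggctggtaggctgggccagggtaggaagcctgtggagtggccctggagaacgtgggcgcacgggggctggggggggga
Hyal1: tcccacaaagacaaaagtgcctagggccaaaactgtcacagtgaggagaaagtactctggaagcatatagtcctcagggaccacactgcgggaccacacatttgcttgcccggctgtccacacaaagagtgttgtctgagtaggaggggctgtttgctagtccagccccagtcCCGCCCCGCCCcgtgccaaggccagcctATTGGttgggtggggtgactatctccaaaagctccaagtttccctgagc
The stretch before Aqp3 held a TATA box 29 bases and a GC box 73 bases before the start site. That before Aqp1 held 1 GC box at 190 bases, and that before Hyal1 held GC boxes at 77 and 72 bases and a CCAAT box at 49. The stretch before Cd44 held 0 matches to these 6 motifs, which says only that the letters are not in this window. Of all 32851 promoters in the table, 12.4% held the TATA box, 33.8% the CCAAT box, 32.7% the GC box, 6.75% the AP-1 motif, 6.02% the E-box and 15.2% the NF-kB motif in the same window. GC content was 64.0% for Aqp3, 62.0% for Aqp1, 56.4% for Cd44 and 56.0% for Hyal1, against a median of 52.4%.

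The diet left no member past the threshold, before or after SDS. In limma's fit, with p-values adjusted by Benjamini and Hochberg over 17111 genes and a threshold of 0.05, 0 of 10 members passed for the diet effect before SDS, for that after SDS or for the difference between them. The same held for the array as a whole, where 0% of the 17111 genes passed in each of the 3 comparisons; 68, 763 and 207 genes had an unadjusted p under 0.05, of which 0 were members. The median diet effect over the members was -0.003 before SDS, against -0.002 over all genes, and -0.01 after SDS, against -0.001 (log2). The members differed widely in how far they moved on single arrays, which the plot of diet ratios shows.

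These counts rest on the labelled samples of after-SDS array 4. With its GC-fed and control-fed samples exchanged, a setting chosen after seeing that this array ran against the others, 4 of 10 members passed for diet after SDS, where 10.7% of genes passed: Aqp3 at 0.72 (adjusted p = 0.0494), Aqp1 at -0.42 (adjusted p = 0.0253), Has1 at -1.01 (adjusted p = 0.00802) and Has2 at -0.73 (adjusted p = 0.0207). For SDS, Has1 and Has2 then passed in control-fed skin, where 25.6% of genes passed, and Aqp3 in GC-fed skin, where 18.9% passed. Has3 was under the threshold in both diets, but the filter kept it only through after-SDS samples, so its calls are no test. Turning the array that opposes the others brings the 4 arrays together by construction, so these values describe how far the results hang on that array and are no evidence for an exchange.

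**Figure D1:**
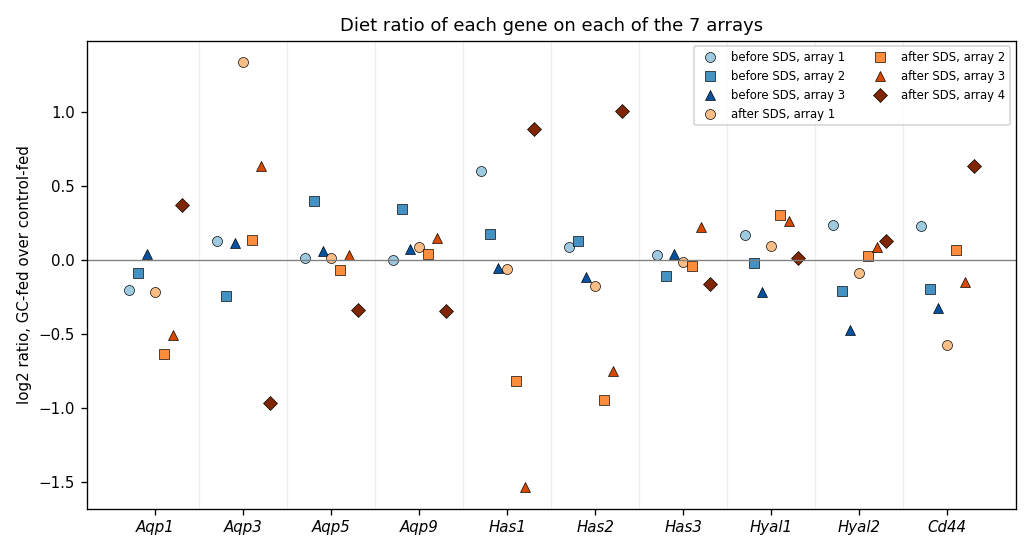
Diet ratio (y axis, log2 of GC-fed over control-fed signal) for each of the 10 genes (x axis) on each of the 7 arrays (points; blue before SDS, orange to brown after SDS). Aqp3 runs from -0.97 to 1.34 and Has1 from -1.54 to 0.89, while Aqp5, Aqp9, Has3, Hyal1 and Hyal2 stay within 0.5 of zero; on array 4 after SDS (dark diamonds) Aqp3 lies below zero and Aqp1, Has1, Has2 and Cd44 above it.

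Aqp3, the aquaglyceroporin of keratinocytes, had the widest range of diet ratios among the aquaporins, and the far ends of that range were after-SDS arrays. Before SDS its ratios were 0.13, -0.24 and 0.11 on arrays 1, 2 and 3. After SDS they were 1.34, 0.14, 0.64 and -0.97 on arrays 1 to 4, so Aqp3 was higher in the GC-fed sample on 3 of 4 arrays and lower on array 4. The fitted diet effect after SDS was 0.29 (SE 0.30, n = 4 arrays; 95% interval -0.42 to 0.99; adjusted p = 0.844), an interval that runs from 0.747-fold to 1.99-fold. The ratios had an SD of 0.97 on the after-SDS arrays and 0.21 on those before SDS, and the SE draws on both. Without array 4 the fitted effect was 0.68 (SE 0.22, n = 3 arrays, adjusted p = 0.121), and without after-SDS array 1 it was -0.02. The deposited gene-level table of the authors gave Aqp3 log2 ratios of 1.37, 0.15, 0.58 and -1.03 on the same 4 arrays.

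The levels show which samples made these ratios. Before SDS, Aqp3 lay at 14.16, 14.38 and 14.02 in the control-fed samples and at 14.29, 14.14 and 14.13 in the GC-fed samples, a spread of less than 0.4. After SDS it was at 14.17, 14.72, 14.37 and 15.19 in control-fed skin and at 15.52, 14.85, 15.01 and 14.22 in GC-fed skin. On array 1 the GC-fed sample stood far above the before-SDS levels and the control-fed sample did not, while on array 4 this was turned round. The SDS effect on Aqp3 was 0.48 (SE 0.25, 95% interval -0.05 to 1.01, adjusted p = 0.195) in control-fed skin and 0.66 (SE 0.25, 0.13 to 1.19, adjusted p = 0.0928) in GC-fed skin, from limma's separate-channel fit. Levels before and after overlapped in both diets. Without after-SDS array 4 the effect in GC-fed skin was 0.91 (SE 0.20, adjusted p = 0.0153), past the threshold, where 16.1% of genes passed. Array 4 held the lowest GC-fed level after SDS, so this call is a description.

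Aqp1, the water channel of blood vessel endothelium and red blood cells, went the other way on each after-SDS array. Its diet ratios were -0.21, -0.64, -0.51 and 0.37 on after-SDS arrays 1 to 4, and -0.20, -0.08 and 0.04 before SDS. The diet effect after SDS was -0.25 (SE 0.15, n = 4 arrays; 95% interval -0.59 to 0.10; adjusted p = 0.835), and without array 4 it was -0.44 (SE 0.10, n = 3 arrays; adjusted p = 0.0612). Without array 2 it was -0.14 and without array 3 it was -0.08. Its level after SDS ranged from 12.72 to 13.28 in control-fed and from 12.47 to 13.09 in GC-fed skin, against 12.88 to 13.08 over the 6 samples before SDS. SDS effects were -0.02 (SE 0.14) and -0.13 (SE 0.14) in control-fed and GC-fed skin, with adjusted p = 0.952 and 0.542.

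Aqp5, the water channel of sweat, salivary and tear glands, and Aqp9, an aquaglyceroporin best known from liver and white blood cells, stayed close to one level. Before SDS both were higher in GC-fed skin on 3 of 3 arrays: Aqp5 by 0.01, 0.40 and 0.06 and Aqp9 by 0.0003, 0.35 and 0.08, most of it on array 2. On the whole array 9.27% of genes were higher on every before-SDS array and 9.59% lower on every one. The fitted diet effects before SDS were 0.16 (SE 0.11) for Aqp5 and 0.14 (SE 0.12) for Aqp9, both with adjusted p = 1. Without before-SDS array 2 both were at 0.04, and without before-SDS array 1 both were at 0.29. On after-SDS array 4 the ratios were -0.34 for both genes, and on arrays 1 to 3 they lay between -0.06 and 0.15. The fitted diet effects after SDS were -0.09 (SE 0.10, adjusted p = 0.853) for Aqp5 and -0.02 (SE 0.10, adjusted p = 0.971) for Aqp9. Without array 4 both changed sign, to 0.02 for Aqp5 and 0.12 for Aqp9. The SDS effects were 0.17 and -0.07 for Aqp5 and 0.08 and -0.08 for Aqp9 in control-fed and GC-fed skin (SE 0.11 and 0.10; lowest adjusted p = 0.306). The other 2 probes of Aqp9 were well above background in only 5 and 2 of 14 channels. In the authors' deposited table both genes sat at the table's floor of 200 in every sample.

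**Figure D2:**
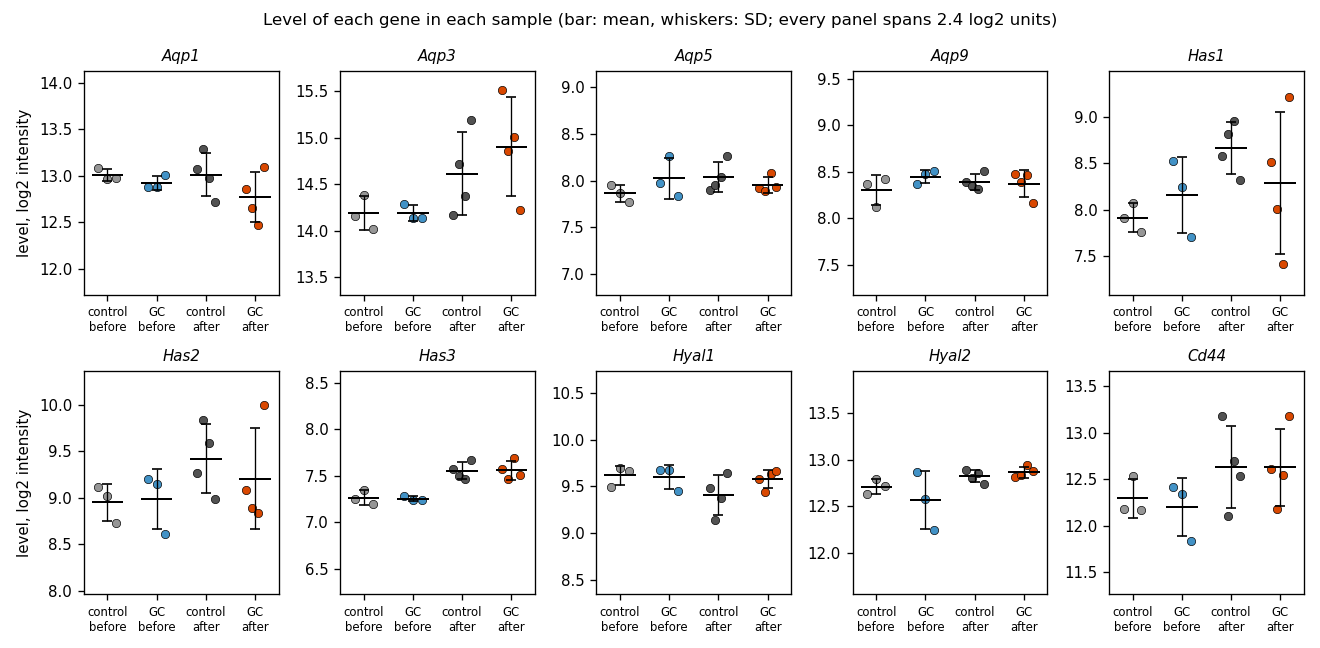
Level (log2 intensity) of each gene in each of the 14 samples, by diet and SDS; points are samples, bars the group mean and whiskers the SD (n = 3 before and 4 after SDS), and every panel spans the same number of log2 units around its own centre. The Has3 panel holds mostly samples not well above background, and the after-SDS samples of Aqp3, Has1, Has2 and Cd44 spread widely.

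Has1 and Has2, hyaluronan synthases of the cell membrane, moved together from sample to sample. Their levels correlated at r = 0.898 over the 14 channels, which share arrays in pairs, and this is a description. The diet ratios of Has1 were 0.60, 0.18 and -0.05 before SDS and -0.06, -0.81, -1.54 and 0.89 after SDS. Those of Has2 were 0.09, 0.13 and -0.11 before SDS and -0.18, -0.95, -0.75 and 1.01 after SDS. Both genes were thus lower in the GC-fed sample on arrays 1 to 3 after SDS and higher on array 4.

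The fitted diet effect after SDS was -0.38 for Has1 (SE 0.36, n = 4 arrays; 95% interval -1.24 to 0.48; adjusted p = 0.837) and -0.22 for Has2 (SE 0.29; -0.90 to 0.47; adjusted p = 0.871). The ratios had an SD of 1.04 for Has1 and 0.88 for Has2 after SDS, against 0.33 and 0.13 before, and these SEs draw on both. Without array 4, Has1 was at -0.94 (SE 0.16, n = 3 arrays, adjusted p = 0.0301). It was the 1 member under the threshold in that fit, where 5.41% of all genes passed. Leaving out the array that opposes the others narrows the spread by construction, so this is a description. In that fit array 3 was the only after-SDS array with GC-fed skin in Cy5. The dye term thus took up part of its distance from arrays 1 and 2. The fitted value is not the mean of the ratios, which ran from -1.54 to -0.06, and its SE is not their spread. Has2 without array 4 was at -0.65 (SE 0.15, adjusted p = 0.0592). The direction also turned on single arrays, with Has1 at 0.07 without array 3 and Has2 at 0.01 and 0.09 without array 2 and array 3 in turn. With the processed signals of the scanner software Has1 was at -0.84 (adjusted p = 0.717) and Has2 at -0.43 (adjusted p = 0.737). The change of the diet effect from before to after SDS was -0.65 for Has1 (SE 0.56, adjusted p = 1), and -1.32 without array 4 (SE 0.24, adjusted p = 0.124). Without after-SDS array 3 it was -0.11, and without before-SDS array 1 it was -0.39. The second probe of Has2 had after-SDS ratios of -0.10, -0.41, -0.45 and 0.22, the same signs at a smaller size. The second probe of Has1 was well above background in 0 of 14 channels. The authors' deposited table gave Has2 log2 ratios of -0.76, -0.97, -0.79 and 0.95 after SDS and held Has1 near its floor, with 0 on the first 2 after-SDS arrays.

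By sample, Has1 lay at 7.92, 8.07 and 7.76 in control-fed skin before SDS and at 8.57, 8.82, 8.95 and 8.32 after it, so that these groups did not overlap. On the array 14.7% of genes were higher after SDS in control-fed skin without overlap. The SDS effect of 0.76 (SE 0.34, 95% interval 1.02-fold to 2.82-fold) did not pass after adjustment (adjusted p = 0.139). In GC-fed skin Has1 lay at 8.52, 8.25 and 7.71 before SDS and at 8.51, 8.003, 7.42 and 9.21 after it, and the groups overlapped (SDS effect 0.12, SE 0.34, adjusted p = 0.853). Has2 in control-fed skin lay between 8.73 and 9.11 before and between 8.99 and 9.83 after SDS, with an SDS effect of 0.44 (SE 0.27, adjusted p = 0.28), and in GC-fed skin the effect was 0.25 (SE 0.27, adjusted p = 0.575). Without array 4 both genes passed in control-fed skin, Has1 at 1.00 (SE 0.21, adjusted p = 0.00783) and Has2 at 0.63 (SE 0.18, adjusted p = 0.0325), where 21.6% of genes passed. Array 4 held the lowest control-fed level of both genes after SDS, so these calls are descriptions.

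Has3, a synthase known in skin mainly from keratinocytes, was dim, and before SDS it was not measured above background. Its probe was well above background in 0 of 6 samples before SDS, 1 of 4 control-fed and 2 of 4 GC-fed samples after it, so it reached the filter of 3 channels only through after-SDS samples. Its signals were 7.25, 7.35 and 7.19 in control-fed and 7.29, 7.24 and 7.24 in GC-fed skin before SDS, and 7.58, 7.50, 7.47 and 7.67 in control-fed and 7.57, 7.47, 7.69 and 7.51 in GC-fed skin after it. The 8 samples after SDS were above the 6 before, an order that 4.99% of genes showed, but 5 of the 8 and all of the 6 were not well above background. The fit gave differences of 0.29 (SE 0.08, 95% interval 0.13 to 0.45, adjusted p = 0.0245) in control-fed skin and of 0.30 (SE 0.08, 0.14 to 0.47, adjusted p = 0.0223) in GC-fed skin. Of all genes 15% passed in control-fed skin, 6.83% upward and 8.13% downward, and 13.6% in GC-fed skin, 6.29% upward and 7.31% downward. Has3 was the 1 member of 10 under the threshold, and since a gene kept only through the samples where it is high had to differ, this is a description and no fold is given.

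The call for Has3 was not stable. It was lost when a term for the replicate number was added (adjusted p = 0.0733 and 0.0656 in control-fed and GC-fed skin), without normalization between arrays (effects of 0.02 and 0.04), and in GC-fed skin with the processed signals (adjusted p = 0.0552). In control-fed skin it was also lost without before-SDS array 1 or 3 or after-SDS array 1 or 4, and in GC-fed skin without any 1 of the before-SDS arrays or after-SDS array 1 or 3. Over all 7 such fits the effect lay between 0.23 and 0.34 in control-fed and between 0.24 and 0.33 in GC-fed skin. The diet ratios of Has3 were -0.01, -0.04, 0.23 and -0.16 after SDS, with a fitted effect of 0.005 (SE 0.08, adjusted p = 0.99). Without after-SDS array 4 that effect was 0.075.

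**Figure D3:**
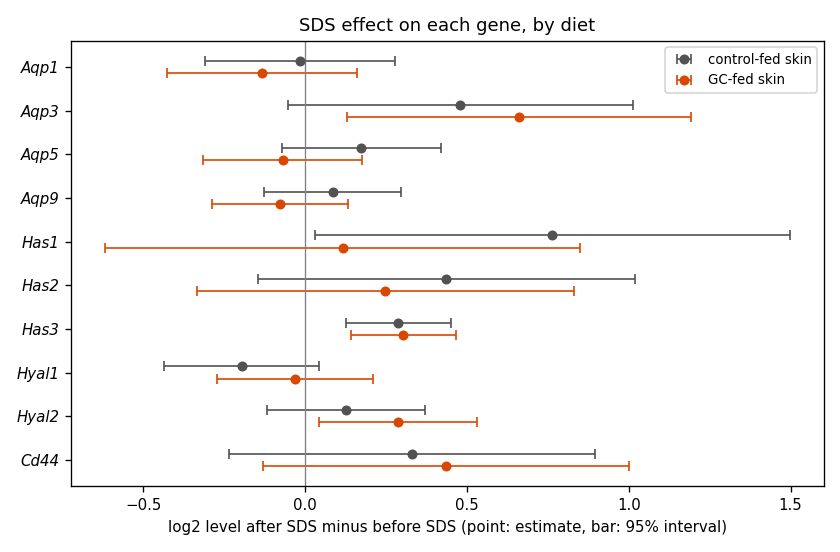
SDS effect (level after minus before SDS, log2, x axis) on each of the 10 genes in control-fed (grey) and GC-fed (orange) skin; points are estimates of limma's separate-channel fit and bars 95% intervals. The intervals of Has3, which was kept only through after-SDS samples, lie above zero in both diets, and those of Has1 in control-fed and of Aqp3 and Hyal2 in GC-fed skin lie just above zero before adjustment.

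Hyal1, the lysosomal hyaluronidase, was the one member whose diet ratios had the same sign on every after-SDS array. They were 0.09, 0.30, 0.26 and 0.01 on arrays 1 to 4, higher in the GC-fed sample on 4 of 4, and its other probe gave 0.07, 0.29, 0.15 and 0.16. Of all genes 3.36% were higher on every after-SDS array and 4.61% lower on every one. The fitted effect of 0.17 (SE 0.08, n = 4 arrays; 95% interval -0.02 to 0.36; adjusted p = 0.835) did not pass. Without array 4 it was 0.20 (SE 0.09, adjusted p = 0.253). Before SDS the ratios were 0.17, -0.02 and -0.22. Levels in control-fed skin were 9.50 to 9.69 before and 9.13 to 9.65 after SDS, and in GC-fed skin 9.45 to 9.68 before and 9.44 to 9.66 after. The SDS effects were -0.20 (SE 0.11, adjusted p = 0.238) and -0.03 (SE 0.11, adjusted p = 0.878).

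Hyal2, the membrane-anchored hyaluronidase that makes the first cuts in long chains, lies next to Hyal1 in the genome. Its diet ratios after SDS were -0.08, 0.03, 0.09 and 0.13, the narrowest range of the 10 genes. The diet effect was 0.04 (SE 0.11, 95% interval -0.22 to 0.30, adjusted p = 0.933). Before SDS the ratios were 0.24, -0.21 and -0.47, with array 1 on the other side of zero from arrays 2 and 3. Levels in GC-fed skin were 12.87, 12.58 and 12.25 before SDS and 12.81, 12.83, 12.95 and 12.88 after it, so that the spread was on the side before SDS. The SDS effect was 0.29 (SE 0.11, 95% interval 0.04 to 0.53, adjusted p = 0.108) in GC-fed and 0.12 (SE 0.11, adjusted p = 0.467) in control-fed skin. Without before-SDS array 1 the first of these was 0.49 and passed (adjusted p = 0.0206), and with the processed signals it was 0.45 and passed (adjusted p = 0.0447). Without before-SDS array 3 it was 0.14 (adjusted p = 0.413).

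Cd44, the main cell surface receptor for hyaluronan, had 3 probes that did not behave alike. The brightest gave diet ratios of 0.23, -0.19 and -0.32 before SDS and -0.57, 0.07, -0.15 and 0.64 after it. The probe printed on 10 spots of the array gave -0.47, -0.54, -0.27 and 0.61 after SDS, so the probes differed in sign on array 2. The third was well above background in 10 of 14 channels and its after-SDS ratios lay between -0.05 and 0.22. The fitted diet effect after SDS was -0.003 (SE 0.19, 95% interval -0.46 to 0.45, adjusted p = 0.999), and -0.25 without array 4 (SE 0.15, adjusted p = 0.367). The level of the brightest probe was 12.19, 12.53 and 12.17 in control-fed skin before SDS and 13.18, 12.11, 12.70 and 12.54 after it. The SDS effect was 0.33 (SE 0.26, adjusted p = 0.405) in control-fed and 0.44 (SE 0.26, adjusted p = 0.286) in GC-fed skin. The first was 0.15 without after-SDS array 1, 0.16 without before-SDS array 1 and 0.51 without after-SDS array 2, and the second was 0.21 without after-SDS array 4, 0.25 without before-SDS array 3 and 0.66 without before-SDS array 1. Before and after overlapped in both diets. The other probes gave smaller SDS effects in control-fed and GC-fed skin, 0.18 and 0.12 for the one on 10 spots and 0.05 and 0.08 for the third.

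Over the 10 members the median SDS effect was 0.23 in control-fed skin, with 8 of 10 above zero, and 0.18 in GC-fed skin, with 6 of 10 above zero; over all genes it was 0.001 and 0. These are descriptions of the list, since the members were chosen with earlier results known.

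Marker genes of other cells moved on the same after-SDS arrays. The 8 suprabasal keratinocyte markers had median diet ratios of 1.14, 0.57, 0.62 and -0.78 on after-SDS arrays 1 to 4, the signs of Aqp3. The 7 basal keratinocyte markers had 0.48, 0.30, 0.57 and -0.20, also the signs of Aqp3. The macrophage and monocyte list (11 of 11 tested) had medians of -0.79, -0.68, -1.14 and 0.61, the neutrophil list (7 of 10) -0.29, -0.66, -0.94 and 1.05, and the erythrocyte list (4 of 8) -0.71, -1.08, -1.26 and 1.07. On these after-SDS arrays these are the signs of Aqp1, Has1 and Has2. The endothelial list (8 of 8) had -0.03, -0.04, -0.41 and -0.02. Before SDS the suprabasal medians were -0.24, 0.49 and 0.22 and the basal medians -0.24, 0.08 and 0.23. Both lists were opposite in sign to Aqp3 on arrays 1 and 2 and of the same sign on array 3. The medians before SDS were -0.14, -0.21 and -0.39 for the macrophage and monocyte list. They were 0.04, -0.18 and -0.13 for neutrophils and -0.14, 0.26 and -0.26 for erythrocytes. None of these lists kept the signs of Aqp1, Has1 or Has2 on every before-SDS array. The macrophage and monocyte list was opposite to Has1 and Has2 on arrays 1 and 2.

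The summed linear intensity of the suprabasal markers, in units of 1000, ranged from 292 to 555 in control-fed and from 416 to 527 in GC-fed skin before SDS, and from 283 to 596 and from 362 to 822 after it. For the macrophage and monocyte list the ranges were 134 to 163 and 125 to 157 before, and 80.7 to 256 and 70.8 to 226 after SDS. For the neutrophil list they were 70.1 to 106 and 61.7 to 120 before, and 101 to 118 and 95.4 to 156 after. For the erythrocyte list they were 58.1 to 74.8 and 53.0 to 74.2 before, and 63.6 to 176 and 48.1 to 160 after. Defining genes that did not pass the filter included Ly6g, Ngp and Camp of neutrophils and Hbb-b2, Epb42 and Rhag of red cells. The part of these cells in the ratios of the members was not tested.

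**Figure D4:**
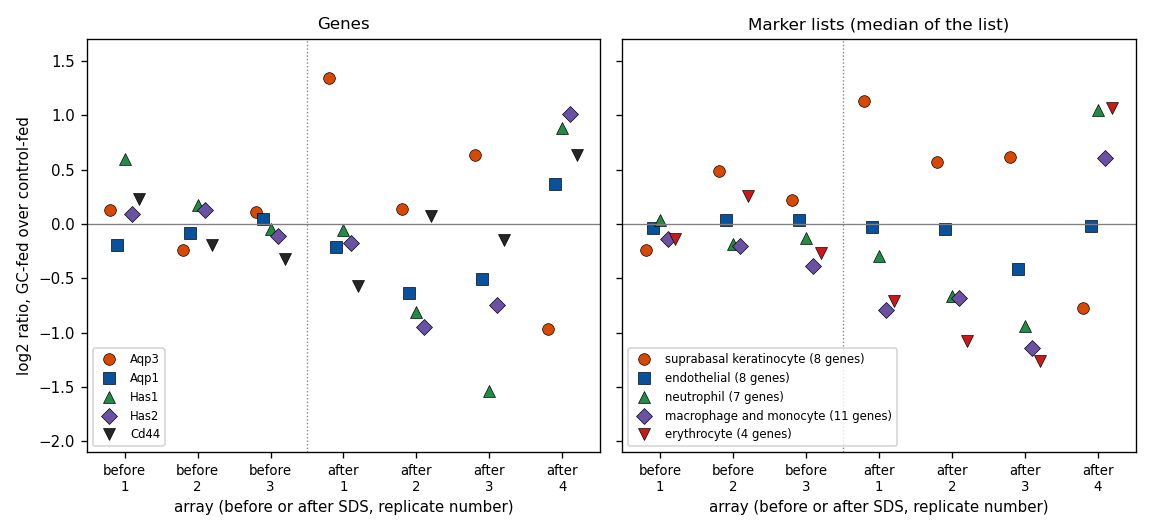
Diet ratio (log2, GC-fed over control-fed) on each of the 7 arrays for Aqp3, Aqp1, Has1, Has2 and Cd44 (left) and the median ratio of 5 marker lists on the same arrays (right); the dotted line parts arrays before and after SDS. On after-SDS array 4 Aqp3 (-0.97) and the suprabasal markers (-0.78) lie below zero, and Has1 (0.89), Has2 (1.01), neutrophil (1.05) and erythrocyte (1.07) markers above it.

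Of the other aquaporins, 5 of 8 were tested. In control-fed skin 2 of 5 rose with SDS, where 6.83% of all genes did: Aqp7, the glycerol channel of fat cells, by 0.48 (SE 0.09, adjusted p = 0.00783), and Aqp11, an aquaporin of inner cell membranes, by 0.40 (SE 0.12, adjusted p = 0.0437). Their mean levels there were 7.82 before and 8.29 after SDS for Aqp7, and 7.82 and 8.23 for Aqp11. For genes of this and the following lists, samples well above background were not counted. Whether the filter kept such a gene only through after-SDS samples, as it did Has3, is thus not known. In GC-fed skin 0 of 5 passed, where 13.6% of all genes did, with Aqp12 at 0.23 (adjusted p = 0.104) and Aqp7 at 0.21 (adjusted p = 0.16). The mean level of Aqp12 there was 7.20 before and 7.40 after SDS, as low as the signals of Has3. Aqp7 had diet ratios of -0.06, -0.35, -0.44 and -0.22 after SDS, lower in the GC-fed sample on 4 of 4 arrays, but the fitted effect of -0.27 (SE 0.07) had adjusted p = 0.835. The 9 adipocyte markers, of which 9 were tested, had median SDS effects of 0.36 in control-fed and 0.04 in GC-fed skin and diet ratios of -0.20, -0.41, -0.81 and -0.29 after SDS; summed, they ranged from 194 to 243 and 185 to 232 before and from 233 to 330 and 196 to 242 after SDS, and their part in the Aqp7 values was not tested.

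Of 19 enzymes that make hyaluronan precursors or break the polymer down, 15 were tested. In control-fed skin 3 of 15 fell with SDS, where 8.13% of all genes did: Cemip2, a cell surface hyaluronidase, by 0.45 (SE 0.13, adjusted p = 0.0396), Ugp2, which makes UDP-glucose, by 0.34 (SE 0.11, adjusted p = 0.0485), and Pgm3, of the UDP-N-acetylglucosamine route, by 0.24 (SE 0.07, adjusted p = 0.041). In GC-fed skin 1 of 15 fell, where 7.31% of all genes did, and 1 rose, where 6.29% did: Ugp2 fell by 0.39 (SE 0.11, adjusted p = 0.0321) and Gnpnat1, of the same route as Pgm3, rose by 0.29 (SE 0.09, adjusted p = 0.0451). The list's median SDS effects were 0.06 and -0.05.

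Of 24 hyaluronan-binding proteins, 17 were tested and 0 passed in any comparison. The smallest unadjusted p for SDS were those of Itih3, a chain that is bound to hyaluronan in the matrix, at 0.15 (SE 0.06, adjusted p = 0.093), and Tnfaip6, the enzyme that transfers such chains, at 0.81 (SE 0.36, adjusted p = 0.141), both in control-fed skin. In GC-fed skin they were those of Acan, the proteoglycan aggrecan, at 0.40 (adjusted p = 0.0731) and Hapln3, a link protein, at 0.26 (adjusted p = 0.085). Tnfaip6 had after-SDS diet ratios of -0.59, -0.87, -0.73 and 1.07, the signs of Has1 and Has2. Lyve1, the hyaluronan receptor of lymphatic vessels, had diet ratios of -0.61, -0.42 and -0.84 before SDS and -1.23, -0.45, -0.67 and 0.91 after it; the effect before SDS was -0.72 (SE 0.33, adjusted p = 1).

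Natural moisturizing factor is the mix of amino acids that the cornified layer gains from filaggrin. All 13 of its genes were tested, and in control-fed skin 2 of 13 fell with SDS, where 8.13% of all genes did: Casp14, a protease of filaggrin breakdown, by 0.91 (SE 0.22, adjusted p = 0.0185) and Oplah, the 5-oxoprolinase, by 0.32 (SE 0.09, adjusted p = 0.0396). In GC-fed skin Casp14 fell by 0.76 (SE 0.22, adjusted p = 0.0403), while Padi3 rose by 1.67 (SE 0.41, adjusted p = 0.0214) and Padi1 by 1.13 (SE 0.34, adjusted p = 0.0472). Both Padi genes encode enzymes that turn arginine of proteins into citrulline. These 2 of 13 stand beside 6.29% of all genes higher in GC-fed skin, and 1 of 13 lower beside 7.31%. In control-fed skin Padi3 was at 1.07 (SE 0.41, adjusted p = 0.0933) and Padi1 at 0.38 (SE 0.34, adjusted p = 0.468). For neither did the SDS effect differ between the diets past the threshold. Of the hair follicle markers 8 of 9 were tested (Krt73 did not pass the filter). They had median SDS effects of 1.06 in control-fed and 1.47 in GC-fed skin, with 8 of 8 above zero in each. In control-fed skin 3 of 8 passed, where 6.83% of all genes passed upward, and in GC-fed skin 6 of 8, where 6.29% did. Summed, in units of 1000, the hair follicle markers ranged from 49.5 to 278 in control-fed and from 44.5 to 126 in GC-fed skin before SDS. After it they ranged from 123 to 310 and from 179 to 325. Their part in the Padi3 and Padi1 values was not tested. For the diet effect 0 of 13 passed; after SDS the median was 0.28, against -0.001 over all genes, and 12 of 13 were above zero. Flg2, a filaggrin relative, had ratios of 0.90, 1.23, 0.59 and -0.82 after SDS, the signs of Aqp3 and of the suprabasal markers.

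Of 19 osmolyte and sodium or water transport genes all were tested. With SDS in control-fed skin 2 of 19 fell, where 8.13% of all genes did: Nfat5, the transcription factor of the response to high osmolarity, by 0.59 (SE 0.11, adjusted p = 0.00708), and Nedd4l, a ubiquitin ligase that lowers epithelial sodium channels, by 0.25 (SE 0.07, adjusted p = 0.0328). In GC-fed skin 1 of 19 fell, where 7.31% of all genes did, Nedd4l by 0.23 (SE 0.07, adjusted p = 0.0475). For the diet effect 0 of 19 passed, with Nfat5 at 0.23 (adjusted p = 0.835) after SDS.

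Genes whose level ran most like that of a member over the 14 channels were named by Pearson's r, as a description; the channels share arrays in pairs. For Aqp3 they were Tdh (0.939), Mpzl2 (0.924) and Asns (0.914), and for Aqp1 Clta (0.925), Ifi203 (0.925) and Ptpn6 (0.914). Clip3 was the nearest gene to both Has1 (0.958) and Has2 (0.946), followed by Tnfaip3 (0.955) and Hs1bp3 (0.941) for Has1 and by Slco4a1 (0.938) and Btbd17 (0.936) for Has2. For Has3 they were Rundc3a (0.965), Tecpr2 (0.961) and Cks1b (0.96), and for Cd44 they included Lims1 (0.947) and Noct (0.94). For Hyal1 they were Ddx39b (0.905), Ftsj1 (0.904) and Pafah1b1 (0.886), and for Hyal2 Wdr83os (0.927), Mrpl57 (0.92) and Tmx2 (0.919). Aqp5 and Aqp9 had looser neighbours, Sprr2j-ps (0.857), Stx17 (0.801) and Zfp385b (0.793) for Aqp5 and Kcnh3 (0.867), Atp4a (0.857) and Bex2 (0.837) for Aqp9.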

How the data were processed

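RNA of dorsal skin was measured on 7 two-colour arrays. Per the file headers, Agilent Feature Extraction 9.1.3.1 gave the deposited spot intensity of each channel, with its local background and a processed signal. The authors also deposited gene-level values: intensity floored at 200, and the log2 of GC-fed over control-fed intensity, whose sign follows the labelled dyes (read from the values). That table served as an alternative: 13087 genes, of which 11319 were used.

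From the scanner intensities, limma 3.58.1 (R 4.3.3) computed normexp-corrected (offset 50), loess-normalized log2 ratios, with control spots at weight 0. Genes were represented by their brightest kept probe. Diet effects came from 1 fit to 7 arrays with a dye term; SDS effects from the separate-channel fit of 14 channels after Aquantile normalization, over 17064 genes, since 47 could not be fitted. Intervals are 95%. A term for the replicate number, leaving out each array, other normalizations, filters and probe rules, and the deposited table were tried, and, added after seeing the data, an exchange of the samples of after-SDS array 4. Named genes of a list are up to 4 that passed, by smallest p, or else up to 2; neighbours are the 3 highest correlations. A few genes that these rules select are not reported here. The scripts were tested on simulated data. The number of arrays limits the precision. Members and lists were chosen with earlier results of these data known.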

Additional observations from a re-analysis of the deposited data

How the results depend on the processing

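Of 534 values of the members under other settings, 459 kept direction and side of the threshold, 48 changed sign, 14 lost and 13 gained a call. The cause was not tested. The 459 are no measure of stability, since some settings could not move a value. The diet effect after SDS, for example, is the same with no dye term, with the replicate block or without a before-SDS array. Most values also began far from the threshold. The labels do not say if before- and after-SDS samples of the same replicate number share animals. Deviations from the group mean correlated from -0.198 to 0.291 between same-numbered samples and from -0.29 to 0.351 between others. With so few samples these values cannot settle a pairing. With the replicate block 1671 and 1531 genes passed for SDS in control-fed and GC-fed skin, against 2552 and 2320 without it, and 2 for diet after SDS; diet effects before SDS became -0.076 for Aqp5 and -0.095 for Aqp9. Without normalization between arrays 0 genes passed for SDS in either diet, and SDS effects became -0.056 for Aqp5, -0.14 for Aqp9 and -0.15 for Hyal2 in control-fed and -0.18 for Has1 and -0.017 for Has2 in GC-fed skin. In the authors' deposited table, with fewer genes tested, 414 and 28 genes passed for SDS, Has1 was at 0.068 for diet after SDS and at 0.081 for its change, and Aqp1 at 0.095 for SDS in control-fed skin. With the processed signals 1314 genes passed for SDS in GC-fed skin; the diet effect after SDS became 0.12 for Aqp9 and -0.12 for Has3, and the SDS effect on Aqp9 -0.035 in control-fed skin. With median centring the diet effect after SDS was 0.031 for Aqp9 and -0.039 for Hyal2, with the mean of probes 0.0125 for Aqp9, and with no dye term the SDS effect on Aqp1 was 0.0083 in control-fed skin. With the samples of after-SDS array 4 exchanged, a setting chosen after seeing the data and not tried for other arrays, 1837 genes passed for diet after SDS, 123 for its change and 4373 and 3232 for SDS in control-fed and GC-fed skin. The diet effect after SDS was then 0.0995 for Aqp5, 0.18 for Aqp9 and -0.071 for Hyal2, and the SDS effect 0.095 for Aqp1 and -0.022 for Aqp9 in control-fed and 0.029 for Aqp5, 0.030 for Aqp9, -0.25 for Has1 and -0.049 for Has2 in GC-fed skin.

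Leaving out 1 array at a time, from 112 (without before-SDS array 1) to 3682 genes passed for SDS in control-fed skin and from 540 to 2756 in GC-fed skin, 0 to 926 for diet after SDS and 0 to 56 for its change, the upper ends without after-SDS array 4. The diet effect after SDS then ranged from -0.44 to -0.078 for Aqp1, -0.024 to 0.68 for Aqp3, -0.14 to 0.020 for Aqp5, -0.087 to 0.12 for Aqp9, -0.94 to 0.071 for Has1, -0.65 to 0.086 for Has2, -0.087 to 0.075 for Has3, -0.025 to 0.13 for Hyal2 and -0.25 to 0.21 for Cd44. The SDS effect in control-fed skin ranged from -0.082 to 0.097 for Aqp1 and -0.0071 to 0.15 for Aqp9, and in GC-fed skin from -0.26 to 0.022 for Aqp1, -0.17 to 0.052 for Aqp5, -0.16 to 0.019 for Aqp9, -0.32 to 0.48 for Has1, -0.072 to 0.50 for Has2 and -0.095 to 0.028 for Hyal1. Has3 had no value under the filter for all 14 channels. The dim signals of Has3 and of the lesser Aqp9 and Has1 probes limit what can be read from them.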
